A study of Homo sapiens with 15 samples.

Results

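The 10 genes PECAM1, CDH5, KDR, TEK, TIE1, FLT1, ETV2, TAL1, LMO2 and ERG, which mark endothelial cells and the precursors that give rise to endothelium and blood, were followed through the cardiac differentiation of a human embryonic stem cell line. They were taken by gene symbol from the 60605 genes of the count table, and all 10 were found, each in 1 row. The cells were wild-type H1, an established line. All cultures were moved to DF medium with the WNT activator CHIR99021 on Day 0 and were given insulin on Day 1, and the libraries of Days 0, 1 and 2 were common to the whole series. From Day 2 the cultures were split into 3 arms, each sampled on Days 3, 5, 7 and 10. NP-ctrl cells were not passaged and received no further inducer. NP-IWP2 cells were not passaged and were treated from Day 2 with IWP2, which blocks the secretion of WNT proteins. By the study's account IWP2 was no longer in the medium from Day 5 on. Passaged cells were dissociated with EDTA on Day 2, replated on Matrigel and received no WNT inhibitor. The study describes them as replated at a low split ratio and left without further treatment, and as a rule added the ROCK inhibitor Y27632 in these differentiations. Each point was 1 library, 15 in all, so that no difference on a given day had a replicate.

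Endothelial cells line the blood vessels, and in the embryo they share with blood a mesodermal precursor that appears shortly after gastrulation. That precursor is recognized by the VEGF receptor KDR, and the same receptor is carried by early cardiac mesoderm, so that KDR alone does not separate the lineages. ETV2, an ETS factor that acts briefly, and the complex of TAL1 and LMO2 start the endothelial and blood programs, whereas ERG maintains the endothelial state. FLT1 binds VEGF with high affinity and acts largely as a decoy for it. TEK and TIE1 form the angiopoietin receptors, and PECAM1 and CDH5 are adhesion proteins of the junctions between endothelial cells.

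The sequence just before the start of 4 of the genes is shown because ETS factors such as ETV2 and ERG recognize the letters GGAA, GATA factors, partners of TAL1 and LMO2, recognize AGATAA, and bHLH factors such as TAL1 recognize E-boxes such as CAGCTG. Capitals mark these 3 motifs on either strand, so that GGAA also appears as TTCC and AGATAA as TTATCT. Matches of different motifs may share letters and were counted separately. The windows come from RefSeq on GRCh38.p14 and run 5′ to 3′ on the strand of the gene. They end where the gene begins in the deposited table, which leaves 250 bases for KDR, TIE1 and ETV2 and 233 for FLT1.
KDR, chr4:55125596-55125845, minus strand: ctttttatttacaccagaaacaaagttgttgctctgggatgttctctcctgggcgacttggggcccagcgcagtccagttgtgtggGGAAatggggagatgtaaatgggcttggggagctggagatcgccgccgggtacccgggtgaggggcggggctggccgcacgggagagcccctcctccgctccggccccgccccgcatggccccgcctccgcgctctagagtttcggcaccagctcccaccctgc
FLT1, chr13:28495146-28495378, minus strand: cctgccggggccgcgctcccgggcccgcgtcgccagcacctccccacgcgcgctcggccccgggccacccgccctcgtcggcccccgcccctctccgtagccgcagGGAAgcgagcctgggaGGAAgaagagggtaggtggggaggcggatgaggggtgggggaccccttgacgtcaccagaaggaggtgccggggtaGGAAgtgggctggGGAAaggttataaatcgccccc
TIE1, chr1:43300732-43300981, plus strand: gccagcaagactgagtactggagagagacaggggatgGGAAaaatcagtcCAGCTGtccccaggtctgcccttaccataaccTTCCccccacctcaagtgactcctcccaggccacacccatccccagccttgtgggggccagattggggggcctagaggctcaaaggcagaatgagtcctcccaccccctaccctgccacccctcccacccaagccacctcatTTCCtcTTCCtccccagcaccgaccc
ETV2, chr19:35641495-35641744, plus strand: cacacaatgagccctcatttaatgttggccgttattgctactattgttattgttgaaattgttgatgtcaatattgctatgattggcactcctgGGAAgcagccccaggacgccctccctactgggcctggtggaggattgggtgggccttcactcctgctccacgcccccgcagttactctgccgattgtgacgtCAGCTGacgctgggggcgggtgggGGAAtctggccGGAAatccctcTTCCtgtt
KDR had 1 GGAA match, and FLT1, TIE1 and ETV2 had 4 each. TIE1 and ETV2 also had 1 CAGCTG each, and none of these 4 windows held AGATAA. RefSeq windows were matched for 7 of the 10 genes, 12 windows of 250 bases in all, of which 12 held GGAA, 4 held AGATAA and 2 held CAGCTG. The 12 are not separate sequences, since 2 windows of TEK overlap, as do 2 of ERG that each held AGATAA. Some windows also lie inside the gene as the deposited table places it. Among the 35116 windows of the same length in the table, 92.74% held GGAA, 9.167% held AGATAA and 13.99% held CAGCTG, so that a GGAA match is the usual state of such a window. These matches describe letters and were not tested as binding sites.

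The libraries held 13254723 to 20250115 counted reads, with a median of 15269132. Levels are given as FPKM, the count per kilobase of exon, scaled to the counted reads of the library, which is the only scale on which genes are compared with each other here. A count of 3, taken as the floor, corresponded to between 0.0118 and 0.105 FPKM for these genes. Ratios between libraries carry exact (Clopper-Pearson) 95% intervals, which cover counting error only and say nothing of how much a repeated culture would vary. Mitochondrial genes took between 1.53% of the counts, in passaged cells on Day 3, and 10.3%, in passaged cells on Day 10.

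Passaged cells had more LMO2 than NP-ctrl cells on Days 5, 7 and 10 but not on Day 3. They had less FLT1 on all 4 days, though on Day 3 this direction turned on the TPM scale. Both differences over Days 3 to 10 passed the main test, but only 5 (LMO2) and 4 (FLT1) of 11 alternative fits. TEK in passaged cells was above the other arms on Day 3 and far below them on Days 7 and 10. KDR in passaged cells passed through a low point on Day 5 and was level with or above the other arms on Day 10. PECAM1, CDH5, TIE1 and TAL1 stayed at or below 0.51 FPKM through Day 7 and were highest in NP-IWP2 cells on Day 10. ETV2 never exceeded 1.40 FPKM, and ERG was highest before differentiation began.

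The set was checked first against the 8 endothelial markers used as a label check, 3 of which (PECAM1, CDH5 and TIE1) are also members of the set. Their summed level on Day 10 was 4.69 FPKM for NP-ctrl, 9.37 for NP-IWP2 and 1.62 for passaged cells, against summed levels of 442, 1402 and 3547 FPKM for the 8 cardiomyocyte markers in the same libraries. CLDN5, a tight junction protein, was at 0.32, 0.70 and 0.21 FPKM on Day 10, and the guidance receptor ROBO4 at 0.09, 0.25 and 0.01. ESAM, an adhesion molecule, was at 0.79, 1.86 and 0.34, and CLEC14A, a lectin of vessel walls, at 0.11, 0.84 and 0.16. VWF, the clotting protein stored in endothelial cells, had its highest values not on Day 10 but on Day 3, at 2.31 FPKM for NP-ctrl, 4.72 for NP-IWP2 and 6.54 for passaged cells. The defining endothelial genes were therefore present at low levels in all arms, and the more abundant members of the set, KDR, TEK, FLT1 and LMO2, are also expressed by cells other than endothelium. In bulk RNA, fewer cells of a type and less RNA per cell cannot be told apart.

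**Figure D1:**
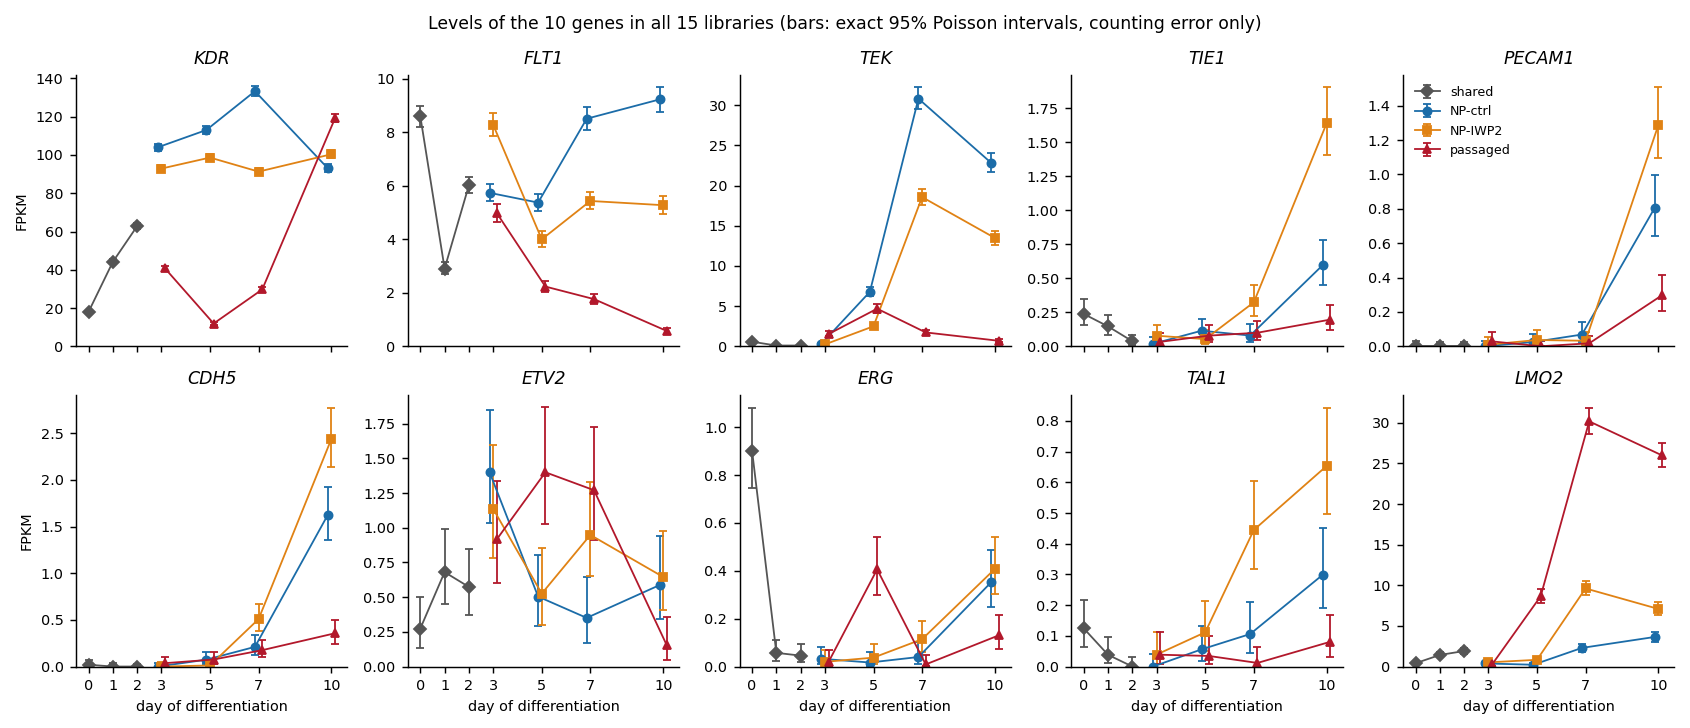
Level of each of the 10 genes in FPKM (y axis, linear, its own scale in each panel) by day of differentiation (x axis), with 1 line for each arm, a separate line for the shared libraries of Days 0 to 2, and bars for exact 95% Poisson counting intervals. KDR spans 11.9 to 133 FPKM, while ETV2, TAL1 and ERG stay at or below 1.40 FPKM in all 15 libraries.

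KDR (ENSG00000128052, chr4:55078481-55125595, minus strand) was the most abundant of the 10 genes. It stood at 18.0, 44.2 and 62.8 FPKM on Days 0, 1 and 2, so that Day 2 was 3.49-fold above Day 0 (95% interval 3.32 to 3.66). In NP-ctrl cells it was at 104.0, 113, 133 and 93.0 FPKM on Days 3, 5, 7 and 10, and in NP-IWP2 cells at 92.9, 98.7, 91.3 and 100.4 FPKM. In passaged cells the same days gave 40.7, 11.9, 29.7 and 119 FPKM. Unpassaged cells thus held KDR within a narrow band, whereas passaged cells were the lowest of the 3 arms on Days 3, 5 and 7 and the highest on Day 10.
The gap between passaged and NP-ctrl cells was widest on Day 5, when passaged cells were 9.51-fold lower (8.95 to 10.1), against 2.56-fold on Day 3 and 4.49-fold on Day 7. On Day 10 passaged cells were 1.28-fold higher than NP-ctrl (1.25 to 1.32) and 1.19-fold higher than NP-IWP2 (1.16 to 1.22), and on the TPM scale these ratios were 1.05 and 1.02. Within passaged cells the level on Day 10 was 10.0-fold that on Day 5 (9.44 to 10.7). NP-IWP2 cells differed little from NP-ctrl, with ratios of 0.893, 0.873, 0.685 and 1.08 over the 4 days.

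FLT1 (ENSG00000102755, chr13:28300346-28495145, minus strand), the other VEGF receptor, was already present in undifferentiated cells at 8.59 FPKM and stood at 2.90 on Day 1 and 6.01 on Day 2. In NP-ctrl cells it was at 5.73, 5.37, 8.50 and 9.22 FPKM on Days 3, 5, 7 and 10, and in NP-IWP2 cells at 8.27, 3.99, 5.43 and 5.27 FPKM. Passaged cells gave 4.97, 2.23, 1.76 and 0.57 FPKM. The passaged values were lower on each later day, and the highest of them lay below the lowest NP-ctrl value.
On Day 3 the passaged to NP-ctrl ratio was 0.867 (0.793 to 0.948), and this was the only direction among the members that turned on another scale, being 1.06 in TPM. By Day 7 passaged cells were 4.82-fold lower, and on Day 10 they were 16.2-fold lower (13.3 to 19.8). Against NP-IWP2 the passaged level was 9.25-fold lower on Day 10 (7.59 to 11.4). NP-IWP2 itself was 1.44-fold above NP-ctrl on Day 3 (1.33 to 1.56) and at 0.572 of it on Day 10 (0.528 to 0.618).

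TEK (ENSG00000120156, chr9:27109141-27230174, plus strand), the receptor for the angiopoietins, was low in the shared libraries, at 0.56, 0.09 and 0.09 FPKM on Days 0, 1 and 2. In NP-ctrl cells it was at 0.28, 6.77, 30.8 and 22.8 FPKM on Days 3, 5, 7 and 10, and in NP-IWP2 cells at 0.23, 2.49, 18.6 and 13.5 FPKM. In passaged cells it was at 1.52, 4.68, 1.72 and 0.68 FPKM. Unpassaged cells therefore held their highest levels on Days 7 and 10, whereas the passaged course peaked on Day 5.
Between Days 3 and 7 the NP-ctrl level was 109-fold higher (72.0 to 175, from 22 counts) and the NP-IWP2 level 80.2-fold higher (48.5 to 144, from 15 counts). Passaged cells were 5.40-fold above NP-ctrl on Day 3 (3.38 to 9.00), at 0.690 of it on Day 5, 17.9-fold below it on Day 7 (14.9 to 21.6) and 33.3-fold below it on Day 10 (25.2 to 45.1). Against NP-IWP2 the ratios ran from 6.58 on Day 3 (3.80 to 12.2) through 1.88 on Day 5 (1.56 to 2.27) to a level 19.7-fold lower on Day 10 (14.8 to 26.7). NP-IWP2 was 2.72-fold below NP-ctrl on Day 5, and at 0.603 and 0.591 of it on Days 7 and 10.

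TIE1 (ENSG00000066056, chr1:43300982-43323108, plus strand), the orphan partner of TEK, did not share its course. It was at 0.24, 0.15 and 0.04 FPKM on Days 0, 1 and 2. NP-ctrl cells gave 0.02, 0.11, 0.08 and 0.60 FPKM on Days 3, 5, 7 and 10, NP-IWP2 cells 0.08, 0.05, 0.32 and 1.64, and passaged cells 0.03, 0.08, 0.10 and 0.20. Day 10 was thus the highest point of each arm, and NP-IWP2 the highest arm on Days 7 and 10.
The NP-IWP2 level was 4.10-fold that of NP-ctrl on Day 7 (1.79 to 10.9, from 35 and 7 counts) and 2.74-fold on Day 10 (2.01 to 3.79, from 174 and 54). Passaged cells on Day 10 were 3.05-fold below NP-ctrl (1.80 to 5.38) and 8.36-fold below NP-IWP2 (5.25 to 14.0). On Days 3 and 5 TIE1 had at most 12 counts in any arm.

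PECAM1 (ENSG00000261371, chr17:64319415-64413776, minus strand) and CDH5 (ENSG00000179776, chr16:66366622-66404784, plus strand), the junction proteins, were the members closest to absent before Day 7. PECAM1 had 0 counts on Days 0, 1 and 2, at most 4 counts in any arm on Days 3 and 5, and 7, 4 and 2 counts in the arms NP-ctrl, NP-IWP2 and passaged on Day 7. On Day 10 it reached 84, 158 and 35 counts, or 0.81, 1.29 and 0.30 FPKM. Passaged cells were thus 2.71-fold below NP-ctrl (1.81 to 4.15) and 4.34-fold below NP-IWP2 (2.99 to 6.45), and NP-IWP2 was 1.60-fold above NP-ctrl (1.22 to 2.11).
CDH5 had 2, 0 and 0 counts on Days 0, 1 and 2. It had 0, 0 and 3 counts in the arms NP-ctrl, NP-IWP2 and passaged on Day 3, then 7, 1 and 7 on Day 5 and 17, 50 and 16 on Day 7. On Day 10 it reached 133, 235 and 33 counts, or 1.62, 2.44 and 0.36 FPKM. The order of the arms on Day 10 was that of PECAM1 and TIE1.
Against Day 3, where no CDH5 read was counted, Day 10 was at least 53.5-fold higher in NP-ctrl and at least 66.7-fold higher in NP-IWP2, taking the floor of 3 counts in each Day 3 library. NP-IWP2 stood 2.41-fold above NP-ctrl on Day 7 (1.37 to 4.46) and 1.50-fold above it on Day 10 (1.21 to 1.87). Passaged and NP-ctrl cells could not be separated on Day 7, with a CDH5 ratio of 0.832 (0.393 to 1.75), whereas on Day 10 passaged cells were 4.56-fold lower (3.09 to 6.89). Below NP-IWP2 they lay 2.90-fold on Day 7 and 6.84-fold on Day 10 (4.74 to 10.2).

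ETV2 (ENSG00000105672, chr19:35641745-35644871, plus strand), the factor that opens the endothelial and blood program, was counted 5 to 49 times per library. It was at 0.27, 0.68 and 0.57 FPKM on Days 0, 1 and 2. NP-ctrl cells gave 1.40, 0.50, 0.35 and 0.59 FPKM on Days 3, 5, 7 and 10, NP-IWP2 cells 1.14, 0.53, 0.95 and 0.65, and passaged cells 0.92, 1.40, 1.27 and 0.15. NP-ctrl cells were therefore highest on Day 3 and passaged cells on Days 5 and 7. NP-IWP2 cells had 33 counts on Day 3 and 33 on Day 7, so their Day 3 level did not stand apart.
The Day 3 level of NP-ctrl was 2.44-fold that of Day 2 (1.48 to 4.13), and in passaged cells the same ratio was 1.60, with an interval from 0.893 to 2.87 that includes no change. Passaged cells stood 2.78-fold above NP-ctrl on Day 5 (1.56 to 5.17) and 3.62-fold above it on Day 7 (1.79 to 8.12), and were 3.84-fold below it on Day 10, where the ratio was 0.260 (0.0751 to 0.735) from 5 and 17 counts. Their level on Day 10 was 8.32-fold below their own level on Day 7.

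LMO2 (ENSG00000135363, chr11:33858576-33892076, minus strand), the bridging protein of the TAL1 complex, had its highest level in passaged cells on Day 7. It was at 0.41, 1.42 and 1.91 FPKM on Days 0, 1 and 2, so that Day 2 was 4.69-fold above Day 0 (2.90 to 7.98). On Day 3 it was back to 0.38, 0.51 and 0.25 FPKM in the arms NP-ctrl, NP-IWP2 and passaged. NP-ctrl cells then gave 0.22, 2.29 and 3.64 FPKM on Days 5, 7 and 10, NP-IWP2 cells 0.83, 9.61 and 7.09, and passaged cells 8.64, 30.2 and 26.0.
All 3 arms thus stood below Day 2 on Day 3. By Day 7 NP-IWP2 and passaged cells stood above it, and passaged cells already did so on Day 5. NP-ctrl cells on Day 7 were close to it, at 2.29 FPKM from 88 counts against 1.91 from 112, and no interval is given for that ratio. Passaged cells were 39.2-fold above NP-ctrl on Day 5 (21.1 to 82.4, from 382 and 10 counts), 13.2-fold on Day 7 (10.6 to 16.5) and 7.13-fold on Day 10 (5.99 to 8.55). Against NP-IWP2 the passaged level was 10.4-fold higher on Day 5 (7.32 to 15.3), 3.14-fold on Day 7 (2.82 to 3.50) and 3.67-fold on Day 10 (3.24 to 4.16). NP-IWP2 lay between the other arms from Day 5 on, 3.77-fold above NP-ctrl on Day 5 (1.82 to 8.55), 4.19-fold on Day 7 (3.33 to 5.33) and 1.95-fold on Day 10 (1.59 to 2.39).

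TAL1 (ENSG00000162367, chr1:47216290-47232220, minus strand), the bHLH partner of LMO2, did not follow it. It had 12, 4 and 0 counts on Days 0, 1 and 2. NP-ctrl cells had 0, 5, 8 and 23 counts on Days 3, 5, 7 and 10, NP-IWP2 cells 3, 9, 41 and 59, and passaged cells 3, 3, 1 and 7. NP-IWP2 was therefore the highest arm on Days 7 and 10, the days on which passaged cells held the most LMO2.
The NP-IWP2 level of TAL1 was 4.20-fold that of NP-ctrl on Day 7 (1.94 to 10.4) and 2.18-fold on Day 10 (1.33 to 3.70). Passaged cells on Day 10 were 3.71-fold below NP-ctrl (1.54 to 10.2) and 8.10-fold below NP-IWP2 (3.69 to 21.0). TAL1 shares exon bases with 1 gene annotated on the opposite strand, and whether the counting used strand is not given in the sources used here, so reads of the pair cannot be told apart.

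ERG (ENSG00000157554, chr21:38380027-38661780, minus strand), the ETS factor of the mature endothelium, had 116 counts on Day 0, or 0.90 FPKM, its highest value in the series. It was 15.8-fold lower on Day 1 (7.73 to 37.4), with 8 counts, and had 7 counts on Day 2. NP-ctrl cells had 4, 2, 4 and 36 counts on Days 3, 5, 7 and 10, NP-IWP2 cells 2, 4, 14 and 49, and passaged cells 2, 47, 1 and 15. The 47 counts of passaged cells on Day 5, or 0.41 FPKM, stood apart from the 2 and 1 counts on the days around it.
On Day 5 passaged cells were 24.1-fold above NP-ctrl, with a wide interval (6.32 to 205) set by the 2 counts in NP-ctrl, and 10.9-fold above NP-IWP2 (3.98 to 41.6). On Day 10 they were at 0.369 of NP-ctrl (0.188 to 0.690) and 0.319 of NP-IWP2 (0.166 to 0.578), and NP-IWP2 and NP-ctrl could not be separated, with a ratio of 1.16 (0.737 to 1.83).

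**Figure D2:**
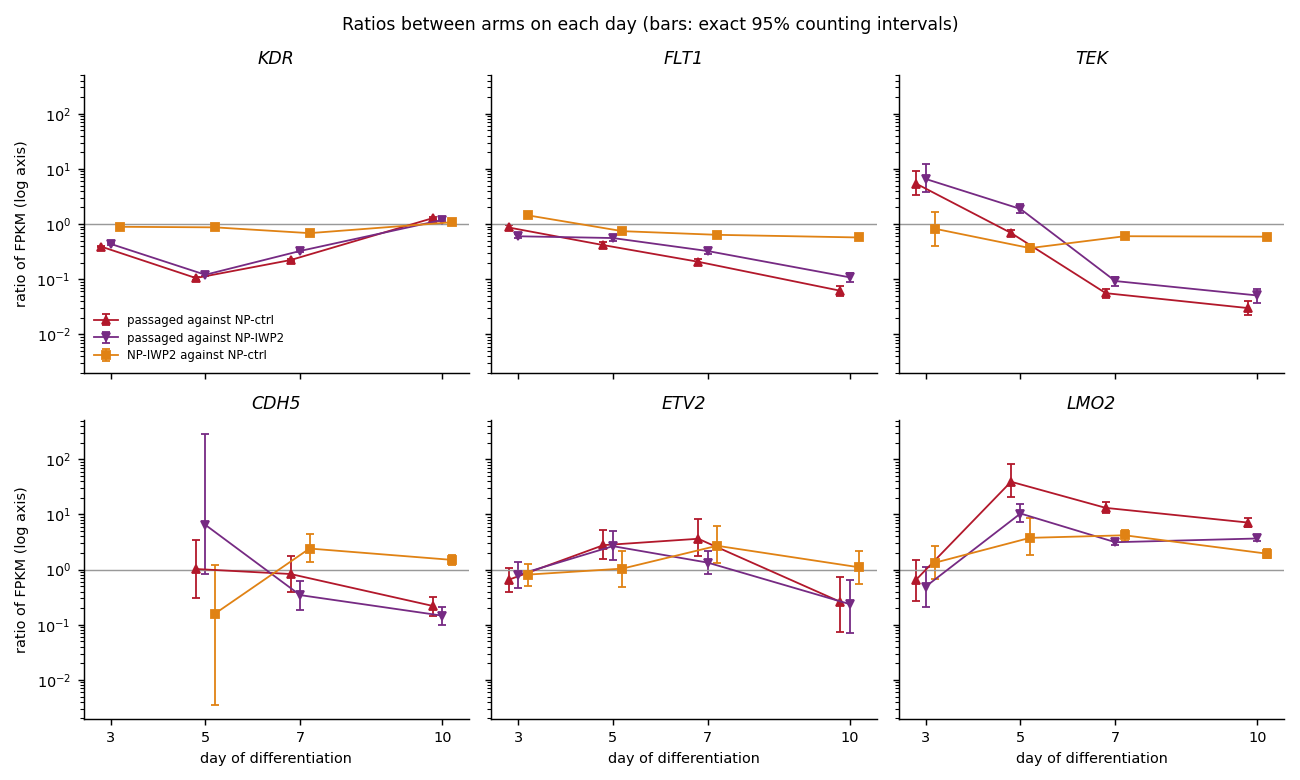
Ratio of FPKM between arms (y axis, log scale) on Days 3, 5, 7 and 10 (x axis) for KDR, FLT1, TEK, CDH5, ETV2 and LMO2, with 1 series for each of the 3 comparisons of arms and bars for exact 95% counting intervals. CDH5 has no ratio on Day 3, when it was at or under 3 counts in every arm. For TEK the passaged to NP-ctrl ratio goes from 5.40 on Day 3 to 0.0300 on Day 10, and for LMO2 it is 39.2 on Day 5.

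Members were then counted by whether 2 arms differed on a day by at least 1 on the log2(FPKM + 1) scale, on which TAL1 and ERG, at no more than 0.65 and 0.90 FPKM, could not reach the limit. Each count over the 10 members is set beside the share of the 21206 genes that had at least 1 FPKM in at least 1 library. Between passaged and NP-ctrl cells, 1 member differed on Day 3 (KDR, lower), beside 8.49% of all genes. On Day 5 there were 2 (LMO2 higher, KDR lower), beside 8.16%. On Day 7 there were 4 (LMO2 higher, KDR, TEK and FLT1 lower), beside 12.6%, and on Day 10 there were 3 (LMO2 higher, TEK and FLT1 lower), beside 17.4%.
Between NP-IWP2 and NP-ctrl cells, no member differed by that much on Day 3, beside 4.15% of all genes, and none on Day 10, beside 9.35%. TEK was lower on Day 5, beside 2.97%, and LMO2 higher on Day 7, beside 7.26%. Between passaged and NP-IWP2 cells, 2 members differed on Day 3 (TEK higher, KDR lower), beside 8.7%, and 2 on Day 5 (LMO2 higher, KDR lower), beside 7.51%. On Day 7 there were 4 (LMO2 higher, KDR, TEK and FLT1 lower), beside 6.69%, and on Day 10 there were 5 (LMO2 higher, CDH5, TEK, TIE1 and FLT1 lower), beside 10.1%. The 3 comparisons use the same libraries, so their counts are not independent of each other. With a pseudocount of 0.1 in place of 1, which gives low genes more weight, the Day 10 counts became 8, 1 and 9 for the 3 comparisons in the order given. The share of all genes was not computed with that pseudocount, so these counts cannot be set beside the shares above.

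Differences that held over Days 3 to 10 were tested with edgeR's quasi-likelihood test on the counts of the 12 libraries, with day as a block and Benjamini-Hochberg adjustment over the 21206 genes. The error of this test is how far differences between arms varied among the 4 days of the same cultures. It was estimated once from all 3 arms, so it also holds the spread of the arm left out of a comparison. With the compared arms alone, the genes called went from 4 to 277 for NP-IWP2 against NP-ctrl. For passaged against NP-ctrl they went from 933 to 109, and for passaged against NP-IWP2 from 282 to 163. TAL1 and ERG did not reach the limit of 1 FPKM, so 8 members entered it. In passaged against NP-ctrl cells 2 of the 8 passed at an adjusted p of 0.05, where 4.4% of all genes did. LMO2 rose by 3.24 on the log2 scale (SE 0.67, adjusted p = 0.0218, edgeR), and FLT1 fell by 1.79 (SE 0.43, adjusted p = 0.0400, edgeR). LMO2 was higher in passaged cells on 3 of 4 days and FLT1 lower on 4 of 4.
KDR had an estimate of -1.40 (SE 0.51, adjusted p = 0.151, edgeR), TEK one of -1.24 (SE 1.08, adjusted p = 0.609) and PECAM1 one of -1.03 (SE 0.80, adjusted p = 0.559), and none of the 3 passed. KDR passed in 3 of 11 alternative fits, with an adjusted p of 0.0239 in DESeq2, 7.93e-05 in edgeR with no filter and 0.0203 in edgeR without Day 10. The other 3 tested members, TIE1, CDH5 and ETV2, had an adjusted p of at least 0.778 in edgeR. The median over the 8 members was -0.71, beside -0.0025 over all genes tested, and -1.36 over the 4 members with a mean of at least 1 FPKM. PECAM1, CDH5 and TIE1 passed the filter only through unpassaged cells on Day 10, so the median over the 8 is not free of the filter. The calls of LMO2 and FLT1 remained without Day 3 and were lost in each of the following fits. Without Day 5 the adjusted p was 0.119 for LMO2 and 0.131 for FLT1, without Day 7 it was 0.212 and 0.275, without Day 10 it was 0.105 and 0.0784, and with the day term dropped it was 0.371 and 0.240.

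In NP-IWP2 against NP-ctrl cells 0 of the 8 members passed edgeR's test, beside 0.0189% of all genes. An unadjusted p under 0.05 was reached by 0 members, beside 1009 of the 21206 genes. DESeq2 and limma also called 0 of the 8. Among the other fits, edgeR with no filter called LMO2, higher (adjusted p = 0.0412). On the compared arms alone edgeR called TEK, lower (adjusted p = 0.0403). The largest estimates were 1.28 for LMO2 (SE 0.64) and 1.15 for TIE1 (SE 0.55), each with an adjusted p of 0.973. The median was 0.25 over the 8 members and -0.37 over the 4 with a mean of at least 1 FPKM. PECAM1 and TIE1 passed the filter only through NP-IWP2 cells on Day 10, so the median over the 8 is not read as a direction of the set. In passaged against NP-IWP2 cells 0 of the 8 passed in edgeR, beside 1.33% of all genes. An unadjusted p under 0.05 was reached by 4 members, beside 2726 of the 21206 genes. DESeq2 called 2, FLT1 and LMO2, beside 4.21% of all genes. The edgeR estimates were 1.96 for LMO2 (SE 0.60, adjusted p = 0.178), -1.34 for FLT1 (SE 0.42, adjusted p = 0.179), -1.55 for TIE1 (SE 0.58, adjusted p = 0.278), -1.14 for KDR (SE 0.50, adjusted p = 0.370) and -1.32 for PECAM1 (SE 0.79, adjusted p = 0.549). The median was -0.97 over the 8 members and -0.80 over the 4 with a mean of at least 1 FPKM. The first of these medians includes PECAM1 and TIE1, which the filter let in only through the NP-IWP2 library of Day 10. TIE1 is also among the 4 members at an unadjusted p under 0.05. An adjusted p above 0.05 over 4 days does not show that the arms were alike.

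The same model was used to ask whether an arm difference changed steadily with day. Between passaged and NP-ctrl cells it did so for 2 of the 8 members, beside 6.15% of all genes. The difference in TEK fell by 1.03 on the log2 scale per day (SE 0.15, adjusted p = 0.00639, edgeR), and that in FLT1 fell by 0.50 per day (SE 0.059, adjusted p = 0.00286, edgeR). CDH5 had an estimate of -0.57 per day (SE 0.23, adjusted p = 0.167, edgeR), and the other 5 had an adjusted p of at least 0.234. A straight line cannot describe KDR, which was lowest in passaged cells on Day 5.
Between passaged and NP-IWP2 cells the same pair passed, beside 1.02% of all genes, with changes per day of -1.06 for TEK (SE 0.15, adjusted p = 0.0162, edgeR) and -0.34 for FLT1 (SE 0.057, adjusted p = 0.0301, edgeR). Without Day 5 the adjusted p was 0.0514 for TEK and 0.0527 for FLT1, and for FLT1 it was 0.0905 without Day 7 and 0.664 without Day 10. CDH5 had an estimate of -0.82 per day (SE 0.25, adjusted p = 0.180, edgeR), and passed in DESeq2 (adjusted p = 0.0393) and in edgeR with no filter (adjusted p = 0.0479). Between NP-IWP2 and NP-ctrl cells 0 members passed, beside 0% of all genes in edgeR, and 0 were called by DESeq2 or limma. An unadjusted p under 0.05 was reached in edgeR by 1 member, beside 1990 of the 21206 genes. That member was FLT1, at -0.16 per day (SE 0.055, adjusted p = 0.446, edgeR).

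**Figure D3:**
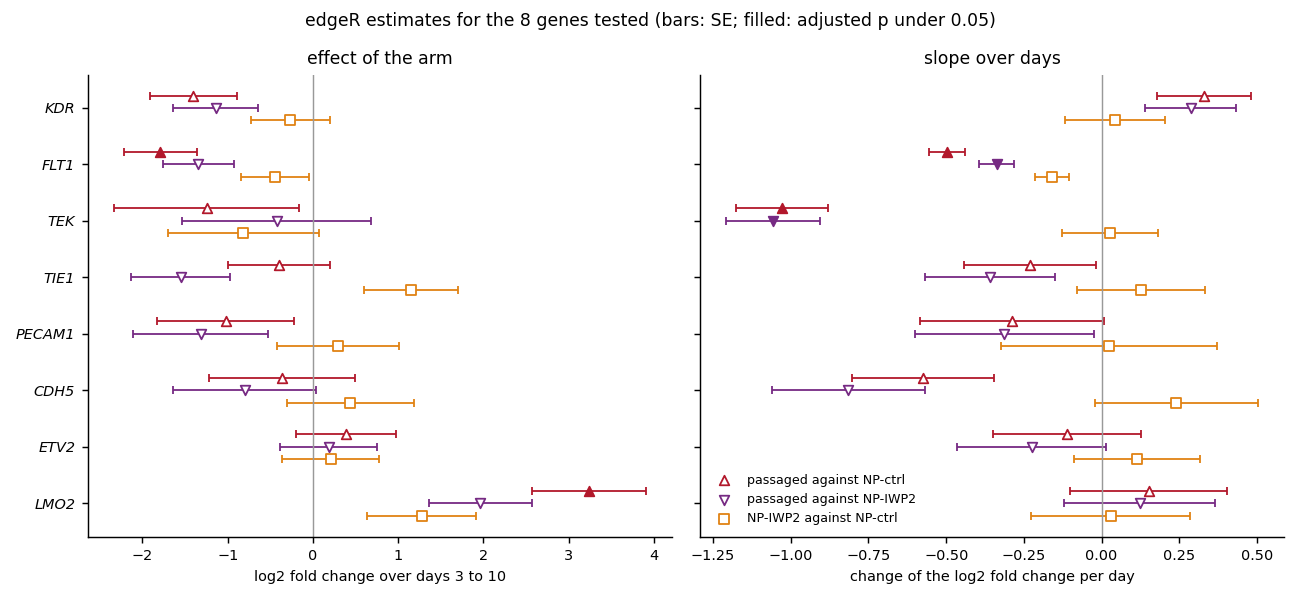
Fitted difference between arms over Days 3 to 10 (left, log2) and its change per day (right, log2 per day) with standard errors for the 8 members tested, for the 3 comparisons of arms. Filled points passed at an adjusted p of 0.05, which holds for LMO2 and FLT1 on the left and for TEK and FLT1 on the right.

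The other genes of the pathways in which the 10 act were described from lists of textbook genes, each tested in the same edgeR fit. Each list count stands beside the share of all genes called. In edgeR that share was 4.4% in passaged against NP-ctrl, 1.33% in passaged against NP-IWP2 and 0.0189% in NP-IWP2 against NP-ctrl cells. DESeq2 called 10.1%, 4.21% and 0.278% in the same order. An unadjusted p under 0.05 in edgeR was reached by 4062, 2726 and 1009 of the 21206 genes in that order. In NP-IWP2 against NP-ctrl cells no gene of any list passed. The count there was 0 of 69 genes in edgeR, with 6 at an unadjusted p under 0.05, 1 called by DESeq2 and 0 by limma. Of the 10 tested ligands and co-receptors of the VEGF and angiopoietin pathways, 0 passed in either of the other comparisons (2 and 3 at an unadjusted p under 0.05, 0 by DESeq2 or limma), with a median of -0.17 in passaged against NP-ctrl cells. The most abundant were the ligand VEGFB, at 17.5 to 29.6 FPKM in NP-ctrl and 17.9 to 32.3 in passaged cells, and the co-receptor NRP1, at 15.4 to 27.2 and 10.6 to 36.0. Over all the pathway lists, the difference between passaged and NP-ctrl cells changed with day for 9 of 69 genes, beside 6.15% of all genes. The 9 are named here after their values were seen. The difference rose for VEGFB, GATA2 and PROX1 and fell for ANGPT1, VWF, NOTCH1, NR2F2, EPHB4 and HBE1. ANGPT1, the main ligand of TEK, had a change of -1.02 per day (SE 0.14, adjusted p = 0.00518, edgeR). Against NP-IWP2 4 of the 69 passed, beside 1.02% of all genes, GATA2 upward and ANGPT1, VWF and HBE1 downward.
In passaged against NP-ctrl cells, where 4.4% of all genes passed, 1 of 17 endothelial surface, junction and matrix genes did. It was PLVAP, a protein of the diaphragms of capillary pores, which fell by 2.46 (SE 0.54, adjusted p = 0.0282, edgeR) and by 2.59 against NP-IWP2 (adjusted p = 0.0437), and stood on Day 10 at 12.2, 11.9 and 1.29 FPKM in the arms NP-ctrl, NP-IWP2 and passaged. The median of the list was -0.21. Of 8 arterial and Notch genes 0 passed against either arm in edgeR, with 2 and 1 at an unadjusted p under 0.05 and 1 called by DESeq2, against NP-ctrl. Their most abundant members were the receptor UNC5B, at 19.5 to 43.2 FPKM in NP-ctrl and 12.95 to 46.9 in passaged cells, and the Notch ligand JAG1, which stood at 4.82 and 67.7 FPKM in those arms on Day 5 and at 22.8 and 11.8 on Day 10.

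Among 16 ETS and other endothelial transcription factors, 2 rose and 2 fell in passaged against NP-ctrl cells, beside 4.4% of all genes called, with a median of -0.49. MEF2C, which acts in heart and muscle as well as in vessels, rose by 2.90 (SE 0.35, adjusted p = 0.00150, edgeR), with 3.89, 20.9 and 40.9 FPKM in the arms NP-ctrl, NP-IWP2 and passaged on Day 10. FOXC2, a factor of paraxial mesoderm and of lymphatic vessels, rose by 3.51 (adjusted p = 0.00491, edgeR) and stood at 15.9, 26.3 and 77.4 FPKM on Day 3. ETS1 fell by 2.59 (adjusted p = 0.0269, edgeR), with 12.3, 11.9 and 1.48 FPKM on Day 10, and ETS2 fell by 1.17 (adjusted p = 0.00369, edgeR).
Against NP-IWP2, 1 of the 16 rose (FOXC2) and 3 fell (ETS2, HHEX and BCL6B), beside 1.33% of all genes called. HHEX and BCL6B, named after their values were seen, fell by 3.42 and 3.39. Of 5 venous and lymphatic genes 0 passed against NP-ctrl in edgeR, with 2 at an unadjusted p under 0.05, 2 called by DESeq2 and 0 by limma, and 1 passed against NP-IWP2. It was APLNR, the apelin receptor of early mesoderm, which fell by 1.33 (adjusted p = 0.0428, edgeR) and had been at 811 FPKM on Day 2.
Of 20 blood and hemogenic genes only 7 reached 1 FPKM in any library. KLF1, a factor of red cell precursors, fell by 1.64 in passaged against NP-ctrl cells (adjusted p = 0.0475, edgeR) and by 1.99 against NP-IWP2 (adjusted p = 0.0422), and stood at 8.96, 7.49 and 2.58 FPKM on Day 3. The leukocyte marker PTPRC never exceeded 0.02 FPKM and the globin HBG1 was listed at 0 in all libraries. Of the 6 partners of TAL1 and LMO2 0 passed in edgeR, DESeq2 or limma, with 1 at an unadjusted p under 0.05 against NP-ctrl and 0 against NP-IWP2. LDB1, which LMO2 binds directly, was at 48.4, 41.0 and 39.7 FPKM in the arms NP-ctrl, NP-IWP2 and passaged on Day 10.

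Markers of other cell types also differed between the arms. The 8 cardiomyocyte markers summed to 564, 2074 and 2979 FPKM on Day 7 in the arms NP-ctrl, NP-IWP2 and passaged, the order of LMO2 in those libraries. That order did not hold on Days 3 and 5. The markers summed to 10.6, 8.38 and 17.3 FPKM on Day 3, with LMO2 at 0.38, 0.51 and 0.25. On Day 5 they summed to 406, 537 and 470 FPKM, with LMO2 at 0.22, 0.83 and 8.64. In passaged against NP-ctrl cells 3 of the 8 rose, where 4.4% of all genes were called. MYL7 and MYH6, the most abundant, were not among those called. They were at 243 and 123 FPKM in NP-ctrl and at 1868 and 1013 FPKM in passaged cells on Day 10. On Day 5 MYL7 was lower in passaged than in NP-ctrl cells, at 204 against 379 FPKM, while MYH6 was higher, at 120 against 1.98.
The 9 fibroblast and mural markers summed to 4562, 1527 and 913 FPKM on Day 7 and to 4626, 1332 and 271 FPKM on Day 10, the order of TEK on those days. On Day 5 they summed to 1990, 1140 and 467 FPKM, with TEK in another order at 6.77, 2.49 and 4.68. Of the 9, 3 fell in passaged against NP-ctrl cells, the comparison of the counts that follow, in which 4.4% of all genes were called. COL3A1 and COL1A1, the most abundant, were not among those called. COL3A1 was at 2352, 628 and 61.2 FPKM on Day 10, and COL1A1 at 871, 242 and 20.6. The mural markers RGS5 and ACTA2, named after their values were seen, had another order, with RGS5 at 27.0, 35.4 and 79.0 FPKM on Day 10 and ACTA2 at 108, 159 and 382 on Day 7. The 8 yolk sac and liver endoderm markers summed to 4125, 1215 and 20.9 FPKM on Day 10, and 5 of the 8 fell. AFP was at 2366, 716 and 0.23 FPKM and APOA1, which was not called, at 1047, 314 and 17.4 on that day.
The 6 mesothelial and epicardial markers summed to 123, 91.8 and 0.84 FPKM on Day 10, 4 of the 6 fell, and TBX18 and BNC1 were at 0.08 and 0.48 FPKM in passaged cells. The 8 early mesoderm markers summed to 1254, 1090 and 399 FPKM on Day 3, with HAND1 at 671, 492 and 103, and 1 of the 8 fell. The 6 pluripotency markers summed to 1859 FPKM on Day 0 and to 30.0, 33.7 and 63.9 FPKM on Day 10, 1 of the 6 rose, which was SOX2, and POU5F1 was at 0.03, 0.02 and 0 FPKM on Day 10 while LIN28A was at 23.3, 18.8 and 8.99. TDGF1, at 0.98, 8.55 and 48.1 FPKM, and SOX2, at 0.06, 0.08 and 4.89, named after their values were seen, were highest in passaged cells on that day. What part these other cells had in the values of LMO2, TEK, FLT1 or KDR was not tested.

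**Figure D4:**
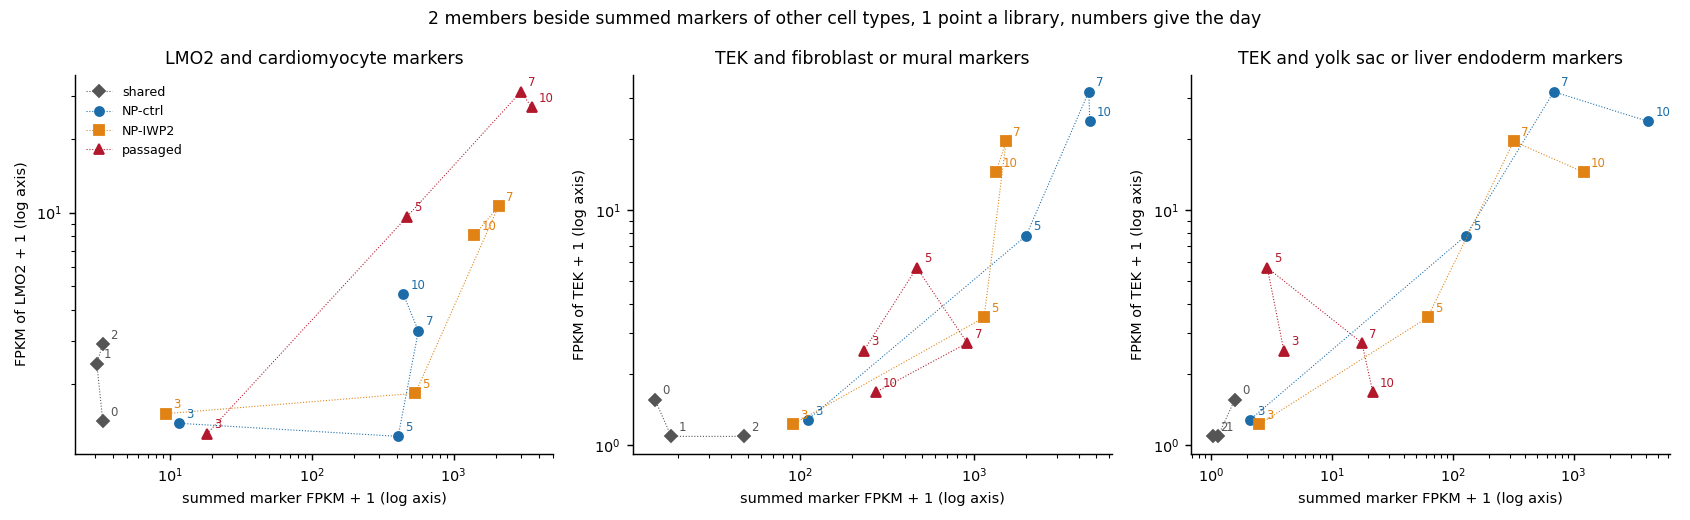
LMO2 against the summed cardiomyocyte markers, TEK against the summed fibroblast and mural markers, and TEK against the summed yolk sac and liver endoderm markers, all as FPKM + 1 on log axes, with 1 point per library, colored by arm and numbered by day. The 3 pairs were chosen after the values were seen, and the passaged points hold the highest LMO2 and cardiomyocyte levels, 30.2 FPKM on Day 7 and 3547 FPKM on Day 10.

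The members did not vary as 1 group. The 15 libraries include 3 arms of the same cultures and so are not independent points. Over them CDH5 on the log2(FPKM + 1) scale had a Pearson correlation of 0.96 with PECAM1, 0.94 with TIE1 and 0.87 with TAL1. It had one of 0.64 with TEK but 0.30 with KDR, and FLT1 had one of -0.67 with LMO2. Spearman correlations were 0.78, 0.69, 0.68, 0.83 and 0.24 for the same partners of CDH5 and -0.38 for FLT1 with LMO2, so that the order depended on the measure. Among 13866 protein-coding genes outside the set, the 6 whose levels were most like those of CDH5 were TM4SF1, F2RL2, LRRC17, CD34, CTXND1 and CXCR2, with Pearson correlations of 0.984, 0.981, 0.979, 0.977, 0.975 and 0.975, and each was highest in NP-IWP2 cells on Day 10. CDH5 had its own highest value in that library. The 6 most like ETV2 were TPGS2, CHD4, CKAP2, NUDT2, ARL6IP1 and CETN3, at 0.814 to 0.770, and each was highest in NP-ctrl cells on Day 3.
For LMO2 and TEK, added after their values were seen, the same measure gave ASB2, PPP1R12B, CSRP3, DGKI, FHL1 and CMTM5 for LMO2, at 0.972 to 0.940, and KCNMA1, FRZB, SLC7A7, ACKR3, SMOC2 and C5 for TEK, at 0.979 to 0.944. CSRP3 is a protein of the contractile apparatus of striated muscle and FRZB a secreted antagonist of WNT. These lists depend on the measure, since by rank correlation 0 of the 6 remained for CDH5, 2 for ETV2, 1 for LMO2 and 1 for TEK.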

How the data were processed

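RNA was measured in 15 libraries of H1 cells, 1 per arm and day, grouped by the sample labels. The deposited table holds raw counts per gene and the FPKM values the authors computed from them, which the counts and the exonic gene length in the table give back to within 0.005. The submitters' processing notes name Cutadapt 1.9.1, HISAT2 2.0.1, HTSeq 0.6.1, DESeq2 and the build hg38, while the library protocol names a long-read SMRTbell kit, so the type of read, the annotation release and the strand setting are not given in the sources used here. Coordinates are those of the table, and 8 of the 10 genes match GENCODE v44 exactly, while the start of CDH5 and the end of TAL1 differ.

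From the deposited counts, edgeR 4.0.16 (R 4.3.3, TMM, quasi-likelihood test) was fitted to the 12 libraries from Day 3 on, blocking on day, over 21206 genes with at least 1 FPKM in at least 1 library, and Benjamini-Hochberg adjustment ran over all of them. Single days were compared on log2(FPKM + 1), which understates the changes of low genes. Alternatives were DESeq2 1.42.0, limma 3.58.1 on log2(FPKM + 1), other scalings, filters and pseudocounts, the compared arms alone, no day block, and each day left out. The fitting step was tested on simulated data. A member's fitted value is given where its unadjusted p was under 0.05 or its estimate reached 1 on the log2 scale, and the others are given by their lowest adjusted p. From each pathway list the genes past the edgeR test in any arm comparison were named, up to the 4 most abundant, or else the 2 most abundant, and from each marker list the 2 most abundant. The members and lists were chosen with earlier results of these data known. Totals of 13254723 to 20250115 counts set the precision of each library, and intervals cover counting error only. With 1 library per arm and day, p-values measure the spread between days of 1 series of cultures.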

Additional observations from a re-analysis of the deposited data

Results flagged for a closer look

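Differences between arms that changed with day were singled out for a closer look, and those of TEK and FLT1 were tested in edgeR. In passaged against NP-ctrl cells the difference changed by -1.03 per day on the log2 scale for TEK and by -0.50 for FLT1, and in passaged against NP-IWP2 cells by -1.06 for TEK and by -0.34 for FLT1.

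Several members, TEK and FLT1 among them, stood on opposite sides of a ratio of 1 on different days, with counting intervals that excluded 1 on both days. The turn between the named days has no test of its own, with 1 library per arm and day, and ERG entered no fit. As a linear change with day in edgeR, that of TEK passed in both comparisons with passaged cells, while those of KDR and ETV2, and of FLT1 in NP-IWP2 against NP-ctrl cells, had an adjusted p of at least 0.234. KDR passed against NP-ctrl in 2 of 9 alternative fits and against NP-IWP2 in 1 of 9. The TEK ratio of passaged to NP-ctrl cells was 5.40 on Day 3 and 0.0300 on Day 10, and to NP-IWP2 cells 6.58 and 0.0508. For KDR the ratio of passaged to NP-ctrl cells was 0.105 on Day 5 and 1.28 on Day 10, that to NP-IWP2 cells 0.120 and 1.19, and that of NP-IWP2 to NP-ctrl cells 0.685 on Day 7 and 1.08 on Day 10. FLT1 in NP-IWP2 against NP-ctrl cells was at 1.44 on Day 3 and 0.572 on Day 10. The ETV2 ratio of passaged to NP-ctrl cells was 3.62 on Day 7 and 0.260 on Day 10, and to NP-IWP2 cells 2.66 on Day 5 and 0.237 on Day 10. ERG in passaged cells was at 24.1 times NP-ctrl on Day 5 and 0.369 of it on Day 10, and at 10.9 times NP-IWP2 on Day 5 and 0.0770 of it on Day 7, the last from 1 count in passaged cells.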

How the results depend on the processing

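Of 189 refitted values of members whose estimates are given in the report, 157 kept their direction and side of the threshold, 20 lost significance, 12 gained it and 0 reversed. Of 267 refitted values of the other members, whose estimates are plotted but not written out, 231 kept both, 0 lost significance, 4 gained it and 32 reversed. The counts of members called moved as follows, and the cause was not tested. The share of all genes called, given in brackets, moved with the setting as well. In passaged against NP-ctrl cells the 2 calls became 3 with DESeq2 (10.1%) and 3 with no filter (6.20%), KDR being added. They became 0 with limma (0.769%), 1 with a mean of at least 1 FPKM (4.93%), 0 with the compared arms alone (0.514%) and 0 without day as a block (0.00472%). Leaving out 1 day gave 0 to 2 (0.627% to 11.2%), the call without Day 10 being KDR alone. In NP-IWP2 against NP-ctrl cells the count of 0 became 1 with no filter (0.897%), which was LMO2, higher. It became 1 with the compared arms alone (1.31%), which was TEK, lower. In passaged against NP-IWP2 cells the count of 0 became 2 with DESeq2 (4.21%) and 4 with no filter (3.30%), and leaving out 1 day gave 0 to 1 (0.0613% to 3.18%). Of the 2 changes with day, limma called 1 against NP-ctrl (1.79%) and 0 against NP-IWP2 (0.00472%). Leaving out 1 day gave 2 to 3 (2.71% to 4.34%) and 0 to 3 (0.462% to 2.07%). Over all alternatives, and as adjusted p, LMO2 in passaged against NP-ctrl cells ranged from 7.62e-12 to 0.371 and passed in 5 of 11, and FLT1 from 4.86e-08 to 0.275 and passed in 4 of 11. The change with day against NP-ctrl passed in 8 of 9 for TEK and 9 of 9 for FLT1, and against NP-IWP2 in 7 and 5 of 9.

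For differences on single days, a pseudocount of 0.1 gave 2, 5 and 8 members on Days 3, 5 and 10 in passaged against NP-ctrl cells, 2, 4 and 1 on Days 5, 7 and 10 in NP-IWP2 against NP-ctrl cells, and 4, 7 and 9 on Days 5, 7 and 10 in passaged against NP-IWP2 cells. TPM gave 2, 5 and 7 on Days 3, 5 and 10 in the first comparison, 2 and 1 on Days 5 and 10 in the second, and 4 and 8 on Days 5 and 10 in the last. TPM moved the median of all genes on log2(value + 1) to 0.28, -0.22 and -0.38 on Days 3, 7 and 10 in passaged against NP-ctrl cells, to 0.18 and -0.11 on Days 3 and 7 in NP-IWP2 against NP-ctrl cells, and to -0.28 on Day 10 in passaged against NP-IWP2 cells. Of 107 daily ratios of members, 1 changed side in TPM and 0 with TMM library sizes. A difference of at least 2 left 0 on Day 3 in the first comparison, 0 on Days 5 and 7 in the second, and 0, 1 and 1 on Days 3, 7 and 10 in the last. For none of these alternative daily counts was the share of all genes computed, so they are not read as results about the members. Day, which matches the arms, was the block of the fit, and no other pairing exists with 1 library per arm and day. Depth limits PECAM1, CDH5, TIE1, ETV2, TAL1 and ERG, which had 5 or fewer counts in at least 1 library each.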
